A study of Mus musculus with 6 samples.

Results

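Fragments of intron-containing tRNA precursors were examined in small RNA libraries of primary wild-type smooth muscle cells from the mouse pulmonary artery, which contract to set the resistance of the lung's vessels. The members were all sequences of the tRNA-derived small RNA (tsRNA) count table whose every annotation names a precursor tRNA. They numbered 641 of 38798 distinct sequences and held 7617 counts in all. By family they were 204 sequences of pre-tRNA-Arg-TCT (4762 counts), 364 of pre-tRNA-Tyr-GTA (2615 counts), 47 of pre-tRNA-Ile-TAT (152 counts) and 26 of pre-tRNA-Leu-CAA (88 counts). Hypoxia cells were kept at 3% oxygen for 24 h and normoxia cells were grown under standard culture conditions, with 3 biological replicates per group. Pandora-seq was used, a protocol that treats RNA with enzymes to take off modifications that would otherwise keep tRNA fragments out of a library. They held between 330787 and 2563749 tsRNA counts, and the table covered sequences of 15 to 45 nt. It listed no mRNA, so that the labelled cell type could not be checked against marker genes.

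A transfer RNA is transcribed as a longer precursor and then trimmed. In vertebrates a few families, among them these 4, carry a short intron just 3' of the anticodon. The tRNA splicing endonuclease cuts at both ends of that intron, a ligase joins the 2 exons, and the freed intron is turned over. A small RNA that holds intron bases therefore comes from a transcript that had not been spliced, or from the released intron itself. Tyrosine, arginine, leucine and isoleucine tRNAs with these anticodons decode their codons in every cell.

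Introns differ between the gene copies of a family while the exons are nearly the same. Where a fragment holds enough intron letters, they show which copy type it came from. Most of the counts sat on a few introns, and 14 introns of 12 to 22 nt were rebuilt from overlapping sequences in the table. The introns that the results turn on are shown here first, 5' to 3', in capitals throughout because every base is intronic.
Arg-TCT intron of 12 nt: GAGGCTGAAGGC
Arg-TCT intron of 13 nt: GACAAATGGAGGC
Arg-TCT intron of 14 nt: GTGACGAGAAAGCG
Tyr-GTA intron of 16 nt, first: TCAGTACAATATGGTA
Tyr-GTA intron of 16 nt, second: GCTTGTGGCTGTGGAC
Tyr-GTA intron of 17 nt, first: TTACATTCGTTGCAGCC
Tyr-GTA intron of 17 nt, second: GAGTATTCGACCTGGAA
Ile-TAT intron of 21 nt: TGTCAGTGCTAGGCGTAAGCG
Leu-CAA intron of 22 nt: CGTTCGCTTCCTCTACTGAGGG
The fragments below are the most abundant ones of the 2 larger families and the tested one with the smallest unadjusted p in Arg-TCT. Lower case marks exon 1, the 5' exon with the anticodon, and capitals mark intron bases.
Arg-TCT fragment of 29 nt: agcgcattggacttctaGAGGCTGAAGGC
Arg-TCT fragment of 24 nt: attggacttctaGAGGCTGAAGGC
Arg-TCT fragment of 41 nt: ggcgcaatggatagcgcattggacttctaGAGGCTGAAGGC
Arg-TCT fragment of 44 nt: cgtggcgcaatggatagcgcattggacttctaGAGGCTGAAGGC
Tyr-GTA fragment of 19 nt: agagcggaggactgtagTC
The 4 Arg-TCT fragments share their 3' end, the last base of the 12-nt intron, and differ in where they begin in exon 1. The Tyr-GTA fragment stops after the first 2 bases of an intron. Whole Tyr-GTA introns of 16 nt (second) and 17 nt (first) complete the most abundant sequences of that family.

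Precursor fragments made up a smaller share of all tsRNA counts in each hypoxia library than in each normoxia library, but 3 against 3 libraries cannot pass the test. The share was 0.0157% in hypoxia replicate 1 (95% Wilson interval 0.0126% to 0.0195%), 0.0509% in replicate 2 (0.0482% to 0.0537%) and 0.0575% in replicate 3 (0.0540% to 0.0612%). In normoxia it was 0.179% (0.165% to 0.194%), 0.116% (0.111% to 0.120%) and 0.128% (0.123% to 0.134%) in the same order. The groups did not overlap, and both libraries numbered 1 were at the outer edges, the lowest and the highest of the 6. Mean shares were 0.0414% ± 0.0225 for hypoxia against 0.141% ± 0.0333 for normoxia (SD, n = 3 libraries each), a ratio of 0.294 (two-sided exact permutation test, p = 0.1). That p is the smallest that 3 libraries against 3 can give. Within same-numbered pairs the ratio of hypoxia to normoxia was 0.0877, 0.440 and 0.449 for replicates 1, 2 and 3. The intervals cover counting error only, since reads without molecular identifiers are not independent molecules. Fewer such fragments per cell and a larger amount of other tRNA fragments cannot be told apart in a share.

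By family, levels are given as CPM, counts scaled to a library total of 1000000 tsRNA counts. Pre-tRNA-Arg-TCT stood at 92.1, 289 and 370 CPM in hypoxia replicates 1 to 3 and at 940, 775 and 804 CPM in normoxia. Pre-tRNA-Tyr-GTA stood at 56.8, 199 and 196 CPM in hypoxia and at 768, 343 and 445 CPM in normoxia. Pre-tRNA-Ile-TAT gave 5.88, 9.75 and 4.67 CPM in hypoxia and 57.4, 24.3 and 26.4 CPM in normoxia. These 3 families did not overlap between the groups, with hypoxia below normoxia, and hypoxia replicate 1 was the lowest library for Arg-TCT and Tyr-GTA. Pre-tRNA-Leu-CAA gave 1.96, 11.7 and 4.67 CPM in hypoxia and 21.2, 14.4 and 6.14 CPM in normoxia, and its groups overlapped. The ratios of the group means were 0.298 for Arg-TCT, 0.290 for Tyr-GTA, 0.188 for Ile-TAT (exact permutation p = 0.1 each) and 0.439 for Leu-CAA (p = 0.2). Normoxia replicate 1 was the highest library for all 4 families. Without it, the difference of means went from -589 to -539 CPM for Arg-TCT and from -368 to -244 CPM for Tyr-GTA. It went from -29.3 to -18.6 CPM for Ile-TAT and from -7.80 to -4.17 CPM for Leu-CAA. Adjusted over the 4 families, the p-values were 0.133 for the first 3 and 0.2 for Leu-CAA. Among all 77 precursor and mature tRNA units of the table, 5 had every hypoxia library below every normoxia library, which is 6.49%. Of these 5, 3 were the precursor units Arg-TCT, Ile-TAT and Tyr-GTA. All 4 precursor families were lower in all 3 pairs, as were 29.9% of the 77 units.

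A model over all 77 units (edgeR's quasi-likelihood test, group only) called 0 units at a Benjamini-Hochberg adjusted p under 0.05, a background of 0%. At an unadjusted p under 0.05 it had 2 units lower and 0 higher in hypoxia. Its log2 changes, hypoxia against normoxia, were -2.06 (SE 0.42, adjusted p = 0.123) for pre-tRNA-Ile-TAT and -1.49 (SE 0.70, adjusted p = 0.995) for pre-tRNA-Arg-TCT. They were -1.43 (SE 0.66, adjusted p = 0.995) for pre-tRNA-Tyr-GTA and -0.72 (SE 0.72, adjusted p = 0.995) for pre-tRNA-Leu-CAA. DESeq2 with the group only called 2 of the 77 units, both lower (2.6%), of which pre-tRNA-Ile-TAT was 1 (adjusted p = 7.32e-06), and limma voom called none. With the replicate number as a block, edgeR called 5 of the 77 units lower (6.49%) and 0 higher. The 5 included pre-tRNA-Arg-TCT at -1.78 (adjusted p = 0.00914), pre-tRNA-Ile-TAT at -2.02 (adjusted p = 0.0174) and pre-tRNA-Tyr-GTA at -1.66 (adjusted p = 0.0174). Pre-tRNA-Leu-CAA was not called there (-0.69, adjusted p = 0.489).

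The blocked family calls depended on the scaling, the sequences and the libraries, and they assume a pairing by replicate number that was not shown. With DESeq2's size factors in the same blocked fit the adjusted p was 0.0812 for Arg-TCT, 0.0637 for Ile-TAT and 0.154 for Tyr-GTA, and with sequences of several families left out it was 0.222 for each. The block in DESeq2 called Arg-TCT (adjusted p = 0.0134) but not Ile-TAT (0.0778) or Tyr-GTA (0.0505). It called 12 of the 77 units in all, 11 of them higher and 1 lower (1.3%), unlike the 5 lower and 0 higher of edgeR. Without pair 2 the 3 adjusted p-values were 0.474, 0.415 and 0.474 in that order, and without pair 3 they were 0.595 each. Without pair 1, which stands apart in both groups, the 3 calls were made with smaller changes of -1.27, -1.76 and -0.98, among 14 units called lower (18.2%). The group-only fit without replicate 1 also called these 3 (adjusted p = 0.0281, 0.0367 and 0.0367), among 9 units called lower (11.7%). Without hypoxia replicate 2 it called Ile-TAT (adjusted p = 0.0323), the only unit called (1.3%). Relative to the median of all units, the blocked change was -1.86 for Arg-TCT with trimmed-mean scaling and -1.85 with size factors, and -1.74 and -1.73 for Tyr-GTA. In log2 units that median moved from 0.07 to 0.18 between these scalings.

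Single fragments were sparse. Of the 641 sequences 245 had 1 count over all 6 libraries and 461 had at most 5, while 12 had at least 100. The most abundant fragment held 11.1% of precursor counts and the 10 most abundant held 41.8%. Over the 6452 sequences that passed the low-count filter, 21 of them precursor fragments (13 Arg-TCT and 8 Tyr-GTA), edgeR with the group only called 0 sequences (background 0%). At an unadjusted p under 0.05 it had 27 sequences lower and 18 higher, 5 of the lower ones precursor fragments, and DESeq2 and limma voom with the group only also called 0. With the replicate block 10 of the 6452 sequences were called, 5 lower (0.0775%) and 5 higher. Among the lower ones was 1 precursor fragment, a Tyr-GTA intron. In 11 of the 21 every hypoxia library was below every normoxia library, against 2.51% of all tested sequences, and 15 were lower in all 3 pairs, against 13.4%. The filter keeps a fragment that is high in 1 group only, so these counts describe the 21 fragments and lend no support beyond them. No Ile-TAT or Leu-CAA fragment passed the filter.

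Pre-tRNA-Arg-TCT was dominated by 1 intron. The 12-nt intron accounted for 4048 counts, 85.0% of the family, in 122 sequences. Its level was 70.5, 241 and 321 CPM in hypoxia and 765, 663 and 688 CPM in normoxia, with no overlap (ratio 0.299, exact permutation p = 0.1). The 13-nt intron had 540 counts (11.3%) and stood at 21.5, 41.7 and 37.9 CPM in hypoxia and 151, 75.3 and 85.9 CPM in normoxia, again with no overlap (ratio 0.324, exact p = 0.1). Both copy types thus showed hypoxia values below all normoxia values.

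The 14-nt Arg-TCT intron was not seen in hypoxia. Its 17 sequences, singled out after their values were seen, had 0 counts in every hypoxia library and 7, 35 and 27 counts in normoxia replicates 1 to 3. These correspond to 21.2, 15.8 and 16.6 CPM (exact permutation p = 0.1; adjusted over the 14 introns, p = 0.156). The 4788228 hypoxia counts allow up to 0.627 CPM at 0 counts, a floor of 3 counts over the group. The pooled normoxia level of 16.5 CPM was 26.4-fold above that floor. This figure covers counting error in hypoxia only, not the spread between replicates or the error of the normoxia level. The intron was rebuilt from these same sequences, so it entered the list through normoxia alone. With 69 counts in all, no single one of its sequences entered the model.

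The lengths of annotated genes bear on the Arg-TCT copies. Mature fragments in the table gave an exon 1 of 37 nt and an exon 2 of 36 nt (4 sequences, 204 counts), together 73 nt without the CCA tail. Another 3' fragment of 15 nt (79 counts) also begins with letters found at the start of exon 2, but it is the end of a 36-nt sequence and was not taken as an exon 2. RefSeq (GRCm38.p6, the assembly of mm10) lists 5 Arg-TCT genes, and lengths of 85, 86 and 87 nt equal that sum plus an intron of 12, 13 or 14 nt. The only gene of 85 nt is n-TRtct2 at chr3:122292948-122293032, and the only one of 87 nt is n-TRtct4 at chr11:69123482-69123568. The 2 genes of 86 nt, n-TRtct1 on chromosome 19 and n-TRtct3 on chromosome 13, share the length that goes with the 13-nt intron. The fifth gene, n-TRtct5, is 74 nt long, which leaves 1 nt and matches none of the introns found. A match in length is not a match in sequence, and no genome sequence was used here.

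The 29-nt Arg-TCT fragment was the most abundant of its family. It measured 11.8, 57.7 and 86.9 CPM in hypoxia and 187, 118 and 136 CPM in normoxia, without overlap, and its log2 change was -1.31 (SE 0.82; edgeR group only, adjusted p = 0.9996). The 24-nt fragment measured 1.96, 58.1 and 57.2 CPM in hypoxia and 39.3, 85.7 and 118 CPM in normoxia. Here hypoxia replicates 2 and 3 lay above normoxia replicate 1, so that the groups overlapped. The 41-nt fragment measured 3.92, 23.0 and 36.8 CPM in hypoxia and 99.8, 40.1 and 59.5 CPM in normoxia, with no overlap. The 44-nt fragment was at 9.79, 6.24 and 2.92 CPM in hypoxia and 30.2, 26.6 and 38.0 CPM in normoxia. It had the smallest unadjusted p of the tested Arg-TCT fragments (edgeR log2 change -2.47, SE 0.72, unadjusted p = 0.00913, adjusted p = 0.9996). In that fragment, unlike the other 3 printed for Arg-TCT, hypoxia replicate 1 was not the lowest library.

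The 13 tested Arg-TCT fragments all ended at the last base of an intron, 12 of them the 12-nt intron. Their fitted log2 changes ranged from -2.59 to -0.89, with a median of -1.38. Across all Arg-TCT sequences, tested or not, fragments crossing from exon 1 into the intron held 95.4% of the family's counts. Of those with the 12-nt intron, 3485 of 3868 counts (90.1%) ended exactly at the last intron base, the position where the splicing endonuclease separates intron from exon 2. For the 13-nt intron it was 440 of 532 counts (82.7%), and for the 14-nt intron 37 of 58 (63.8%). The share of Arg-TCT counts from exon 1 into the intron that ended there was 79.1%, 91.5% and 87.7% in hypoxia and 80.4%, 83.3% and 91.5% in normoxia. The groups overlapped and their means, 86.1% ± 6.35 and 85.1% ± 5.76, differed by less than the spread between replicates (exact permutation p = 1.0). Levels of the fragments that ended there were 66.6, 259 and 311 CPM in hypoxia and 695, 612 and 701 CPM in normoxia. Those that ended earlier in the intron were at 17.6, 24.2 and 43.8 CPM against 169, 123 and 65.0 CPM. Both sets had no overlap, with ratios of 0.317 and 0.239 (exact permutation p = 0.1 each).

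The starts of the Arg-TCT fragments were spread over exon 1. Counted from 1 at the 5' end of the mature tRNA, position 21 began 24.5% of the counts that ran from exon 1 into the intron. Position 26 began 15.6% and position 9 began 9.18%. Few Arg-TCT counts (0.176%) began at position 1. The complete 5' exon with the 12-nt intron would exceed the 45-nt limit of the table, and whole Arg-TCT introns of 12 to 14 nt lie under its 15-nt minimum. Neither could therefore be seen.

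Pre-tRNA-Tyr-GTA was more varied, with 8 introns of 13 to 20 nt. RefSeq lists 10 Tyr-GTA genes of 86 to 93 nt, a span of 7 nt that equals the span of the 8 intron lengths. In Ile-TAT and Leu-CAA genes and introns matched less well. RefSeq lists 1 Ile-TAT gene against 2 introns found, and 4 Leu-CAA genes against 1 intron found. The first 16-nt intron held 1075 counts, 41.1% of the family. Of these, 448 ended after its first 2 bases, so their assignment to this intron rests on 2 letters. An intron that was not found could begin with the same letters. It stood at 5.88, 80.0 and 67.1 CPM in hypoxia and 369, 126 and 215 CPM in normoxia. The second 16-nt intron stood at 3.92, 22.2 and 15.2 CPM against 109, 62.2 and 68.1 CPM. In the 2 introns the groups did not overlap, with ratios of 0.215 and 0.173 (exact permutation p = 0.1 each). The first 17-nt intron was at 25.5, 20.3 and 25.1 CPM in hypoxia and 81.6, 28.9 and 42.3 CPM in normoxia, a ratio of 0.464. For the second 17-nt intron the values were 0, 7.41 and 13.4 CPM against 96.7, 33.4 and 35.0 CPM, a ratio of 0.126. Neither overlapped between the groups (exact permutation p = 0.1 each). Without normoxia replicate 1, the difference of means went from -186 to -120 CPM for the first 16-nt intron, from -27.3 to -12.0 CPM for the first 17-nt intron and from -48.1 to -27.2 CPM for the second.

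Not every Tyr-GTA intron had all hypoxia libraries below all normoxia libraries, although the hypoxia mean was lower in each of the 14 introns. An intron of 13 nt (TATAGGTGTTGAT, 120 counts) was at 5.88, 19.9 and 4.67 CPM in hypoxia and 3.02, 12.2 and 18.4 CPM in normoxia. An intron of 16 nt (AGTTACTAGAATAGTG, 85 counts) was at 0, 11.3 and 10.5 CPM against 9.07, 6.76 and 12.3 CPM. Both overlapped between the groups, with ratios of 0.906 and 0.776 (exact permutation p = 1.0 and 0.8). The 20-nt Tyr-GTA intron (22 counts) also overlapped, at 3.92, 0.390 and 1.17 CPM in hypoxia and 18.1, 4.06 and 1.23 CPM in normoxia. Its ratio was 0.234 (exact permutation p = 0.2). Of all 14 introns, 9 had every hypoxia library below every normoxia library, against 2.51% of tested sequences and 6.49% of units in the table. In all 3 pairs 11 were lower, against 13.4% of sequences and 29.9% of units. An intron is a sum over several sequences, so neither single sequences nor whole units are a like background. The introns were also rebuilt from the table's own reads, and one seen only in normoxia enters the list through that group. These counts describe the introns found and lend no support beyond them. None passed adjustment over the 14, which could not go below 0.1. The differences between introns were not tested.

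The whole second 16-nt Tyr-GTA intron was the precursor fragment called with the replicate block. It had 277 counts and measured 0, 9.75 and 8.75 CPM in hypoxia and 75.6, 48.7 and 63.8 CPM in normoxia. All 3 normoxia libraries lay above all hypoxia libraries, and the 0 of hypoxia replicate 1 allows up to 5.88 CPM at its depth. The log2 change was -3.07 with the group only (SE 1.05, edgeR adjusted p = 0.9996) and -3.17 with the block (SE 0.62, adjusted p = 0.0178). The blocked call was also made with size factors (adjusted p = 0.0119), with DESeq2 (adjusted p = 0.00176), without pair 1 (adjusted p = 0.0115) and without pair 3 (adjusted p = 0.00737). It was not made with limma voom (adjusted p = 0.0729) or without pair 2 (adjusted p = 0.0974). The whole first 17-nt intron (94 counts) measured 11.8, 0.390 and 4.08 CPM in hypoxia and 27.2, 11.3 and 28.2 CPM in normoxia. Its groups overlapped, since hypoxia replicate 1 lay above normoxia replicate 2 (ratio 0.243, exact permutation p = 0.2).

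Most other Tyr-GTA fragments stopped inside the intron, unlike the Arg-TCT ends described above, although the difference between the families was not tested. For the first 16-nt intron 448 of 1029 counts from exon 1 into the intron (43.5%) ended after its first 2 bases, 187 (18.2%) after base 15 and 147 (14.3%) at its last base. For the second 17-nt intron 123 of 182 such counts (67.6%) ended after base 4. For the second 16-nt intron 53 of 73 counts (72.6%) ended at the last base. In exon 1, starts at position 21 made up 22.8% of Tyr-GTA counts, position 9 made up 15.3%, position 18 made up 13.3% and position 14 made up 12.2%.

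The 19-nt Tyr-GTA fragment, with 2 intron bases, measured 0, 8.19 and 8.75 CPM in hypoxia and 78.6, 14.0 and 14.1 CPM in normoxia. Its groups did not overlap, and normoxia replicate 1 stood far above the other 5 libraries (log2 change -2.10, SE 1.12, edgeR adjusted p = 0.9996). One tested Tyr-GTA fragment had a positive fitted change, and it is given because it was the exception, after its values were seen. It has the same start as the 19-nt fragment and runs on to base 15 of the same intron.
Tyr-GTA fragment of 32 nt: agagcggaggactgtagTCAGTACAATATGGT
It measured 0, 8.19 and 9.34 CPM in hypoxia and 15.1, 2.71 and 0.614 CPM in normoxia. It was lower in hypoxia in replicate 1 and higher in replicates 2 and 3, and its log2 change of 0.67 (SE 1.37) was within its error.

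Where a fragment has only a few intron bases, its assignment to a precursor and to one intron rests on those bases. Counts with 1 to 3 intron bases made up 39.3% of Tyr-GTA, 16.4% of Ile-TAT and 3.36% of Arg-TCT. With at least 5 intron bases required, a limit chosen after seeing the data, all families together stood at 127, 382 and 436 CPM in hypoxia and 1342, 928 and 1066 CPM in normoxia. The groups did not overlap and the ratio was 0.284 (exact permutation p = 0.1). The ratio was then 0.255 for Tyr-GTA, 0.182 for Ile-TAT and 0.297 for Arg-TCT, none of them overlapping.

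Pre-tRNA-Ile-TAT had 152 counts, so its values rest on few reads. Its 21-nt intron had 98 counts and stood at 3.92, 5.07 and 4.08 CPM in hypoxia and 54.4, 14.0 and 16.6 CPM in normoxia, with no overlap (ratio 0.154, exact permutation p = 0.1). Normoxia replicate 1 was far above the others, and without it the difference of means went from -24.0 to -10.9 CPM. The whole intron, the most abundant fragment of the family, had 37 counts. It measured 0, 1.17 and 2.33 CPM in hypoxia and 15.1, 4.96 and 8.59 CPM in normoxia. The 0 of hypoxia replicate 1 allows up to 5.88 CPM, and the means were 1.17 ± 1.17 and 9.56 ± 5.15 CPM. The next fragments by mean CPM had 3 and 2 counts. In this family 35.5% of counts ran from the intron into exon 2 and 29.6% lay inside the intron.

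Pre-tRNA-Leu-CAA had 88 counts, of which 60 (68.2%) could not be placed on a rebuilt intron. Its whole 22-nt intron was seen in replicate 2 alone, with 4 counts in hypoxia and 15 in normoxia (exact permutation p = 1.0). Next by mean CPM, a Leu-CAA fragment of 15 nt had 2 counts in hypoxia replicate 2 and 9 in normoxia replicate 3. After it, a fragment of 20 nt had 2 counts in normoxia replicate 1. Ranking by mean CPM favors sequences seen in a library of low depth. A fragment of 17 nt had 11 counts, all in hypoxia replicate 2, and one of 28 nt had 7, all in normoxia replicate 2. As given above, the family was lower in hypoxia in all 3 pairs, with overlapping groups.

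By region, 599 of the 641 sequences, with 98.4% of precursor counts, were placed. Fragments from exon 1 into the intron held 84.6% of counts, fragments inside the intron 5.76%, fragments from the intron into exon 2 4.23%, and fragments across both junctions 3.82%. Fragments from exon 1 into the intron stood at 112, 431 and 513 CPM in hypoxia and 1457, 985 and 1064 CPM in normoxia. Intron-only fragments stood at 13.7, 12.9 and 15.8 CPM in hypoxia, a narrow range, and at 121, 75.3 and 101 CPM in normoxia. Fragments across both junctions stood at 11.8, 8.19 and 16.3 CPM against 103, 49.1 and 57.1 CPM. In these 3 regions the groups did not overlap, with ratios of 0.301, 0.142 and 0.174 (exact permutation p = 0.1 each, 0.167 adjusted over the 5 regions).

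Fragments from the intron into exon 2 overlapped between the groups. They stood at 13.7, 42.1 and 19.3 CPM in hypoxia and 75.6, 33.8 and 45.4 CPM in normoxia (ratio 0.485, exact permutation p = 0.2), with hypoxia replicate 2 above normoxia replicate 2. To compare regions directly, each was expressed as a share of a library's precursor counts. Intron-only fragments made up 8.75%, 2.53% and 2.74% in hypoxia and 6.77%, 6.51% and 7.89% in normoxia. Hypoxia replicates 2 and 3 lay below all normoxia libraries and hypoxia replicate 1, with 80 precursor counts, above them. The shares from exon 1 into the intron, 71.3%, 84.6% and 89.1% against 81.6%, 85.2% and 83.0%, also overlapped. The share from the intron into exon 2 had the opposite order of means, at 8.75%, 8.28% and 3.35% in hypoxia and 4.23%, 2.92% and 3.54% in normoxia. Here hypoxia replicates 1 and 2 lay above all normoxia libraries and replicate 3 between them (exact permutation p = 0.3). Fragments across both junctions made up 7.50%, 1.61% and 2.84% against 5.75%, 4.25% and 4.45% and overlapped (exact permutation p = 0.8). Adjusted over the 4 shares, the smallest p was 0.8. A different response of one region was therefore not shown.

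Grouped by length, every class had hypoxia below normoxia. Fragments of 15 to 19 nt stood at 25.5, 75.3 and 68.8 CPM in hypoxia and 281, 192 and 180 CPM in normoxia. Those of 30 to 45 nt stood at 70.5, 203 and 195 CPM against 750, 402 and 472 CPM. The ratios were 0.260 at 15 to 19 nt, 0.334 at 20 to 24 nt, 0.281 at 25 to 29 nt and 0.289 at 30 to 45 nt, without overlap in any class (exact permutation p = 0.1 each, 0.1 adjusted over the 4). Within families 10 of the 16 combinations of family and length class did not overlap, and 2 of the exceptions were Tyr-GTA at 20 to 24 nt and Ile-TAT at 30 to 45 nt. The other 4 were the classes of Leu-CAA. Every hypoxia library was below every normoxia library in 2.51% of tested sequences and 6.49% of units in the table. Neither is a like background for sums by length class, and none was computed. These counts describe the classes and lend no support beyond them. The mean length of precursor fragments, weighted by counts, averaged 28.8 ± 0.956 nt in the hypoxia libraries and 28.6 ± 0.431 nt in the normoxia libraries (SD, n = 3 each; exact permutation p = 0.9). In Arg-TCT the most counted lengths were 29 nt (18.0% of counts), 24 nt (14.6%) and 41 nt (7.24%). In Tyr-GTA they were 16 nt (10.9%), 18 nt (7.30%) and 17 nt (6.85%).

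Set against mature fragments of the same 4 families, precursor counts per 100 mature counts were 0.291, 1.56 and 1.58 in hypoxia and 3.46, 3.13 and 3.45 in normoxia. The pooled normoxia ratios lay close together and above all hypoxia libraries (means 1.14 ± 0.739 and 3.35 ± 0.191, exact permutation p = 0.1). Within single families, given below, the normoxia ratios did not lie close together. Mature Tyr-GTA itself was at 23368, 21780 and 24885 CPM in hypoxia and at 22450, 25883 and 25835 CPM in normoxia, and its groups overlapped. Tyr-GTA precursor counts per 100 mature counts were 0.243, 0.912 and 0.788 against 3.42, 1.33 and 1.72, with no overlap. For Ile-TAT they were 0.171, 0.476 and 0.165 against 1.74, 0.691 and 0.560, also with no overlap. Leu-CAA overlapped, at 0.0164, 0.167 and 0.0662 against 0.169, 0.231 and 0.114 (exact permutation p = 0.2). Arg-TCT overlapped, at 0.611, 16.9 and 21.9 against 7.03, 56.8 and 67.9 (exact permutation p = 0.3). Mature Arg-TCT was at 15059 and 13374 CPM in hypoxia and normoxia replicate 1 and at 1185 to 1715 CPM in the other 4 libraries. The 2 replicate-1 libraries therefore differ from the rest in this denominator. It is also part of the pooled denominator, so the closeness of the pooled normoxia ratios depends on it. Within pairs the Arg-TCT ratio of hypoxia to normoxia was 0.0870, 0.297 and 0.322.

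Fragments that cross the joined exons show the spliced counterpart, counted with at least 4 bases on each side. For Arg-TCT the spliced junction was at 686, 2.73 and 1.75 CPM in hypoxia and 774, 5.41 and 9.20 CPM in normoxia. The unspliced exon 1 to intron junction was at 88.1, 274 and 356 CPM against 913, 736 and 777 CPM. Spliced Arg-TCT fragments were thus high in both replicate-1 libraries and near 0 elsewhere, while the unspliced ones separated by group. The unspliced share of Arg-TCT junction counts was 11.4%, 99.0% and 99.5% in hypoxia and 54.1%, 99.3% and 98.8% in normoxia (exact permutation p = 0.9). For Tyr-GTA the unspliced share was 6.98%, 81.2% and 65.1% in hypoxia and 44.7%, 80.9% and 76.6% in normoxia (exact permutation p = 0.7). In Leu-CAA 1016 counts crossed the spliced junction and 1 count the unspliced one. Unspliced junctions were counted only among fragments placed on a rebuilt intron, and 68.2% of Leu-CAA precursor counts were not placed. The 2 Leu-CAA numbers are therefore not a like comparison. Spliced Leu-CAA stood at 114, 120 and 99.8 CPM against 103, 129 and 97.6 CPM, and the means differed by less than the spread between replicates (exact permutation p = 0.9).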

How the data were processed

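Small RNA was measured in 3 hypoxia and 3 normoxia libraries, grouped and numbered by their titles. Per the labels' protocols, TRIzol total RNA was treated enzymatically (Pandora-seq) ahead of cloning. The build is mm10 per the submitters' processing notes, while aligner, annotation tool, tRNA reference and filters were not given in the sources used here. Values as deposited are raw counts per distinct sequence, not normalized, with total counts of 330787 to 2563749 per library. CPM was computed from each library's total.

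Introns were found from sequences that cross both junctions, or by joining pieces that overlap by at least 8 nt, and each precursor sequence was placed on them by exact match. This replaced a planned placement on the genome and on gene copies, since no genome sequence was used here, so values are given per intron. Fits over all sequences and over all tRNA units used the quasi-likelihood test of edgeR 4.0.16 (R 4.3.3) after filterByExpr and scaling by trimmed means, with the group alone and a threshold of 0.05 on Benjamini-Hochberg adjusted p-values. DESeq2 1.42.0 and limma 3.58.1 were alternatives. A sequence given to several families counted in each. For sums, shares and ratios the difference of group means was tested by exact permutation, two-sided (Python 3.11.15, pandas 2.3.3, NumPy 2.4.6), and paired alternatives by sign flips, which cannot go below p = 0.25. The edgeR fits over sequences were tested on simulated counts. Their set dispersion, the spread beyond counting error, was below the 0.706 of the group-only fit. That test therefore does not show the power of the fits here.

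Deviations from the group means correlated at 0.776, 0.499 and 0.418 between libraries of the same number. The replicate number was taken as pairing the samples, and blocked values stand beside the results they change. Both libraries numbered 1 stand apart from the others. Deviations within a group cancel out, so a shared shift of these libraries alone can make the other same-number correlations positive. Correlations between libraries of different numbers were not examined. The values therefore cannot show that the other libraries are paired, and every blocked call rests on that assumption. Named fragments were, in each family, the 3 with the highest mean CPM, any called with the group alone or with the block, and the tested one with the smallest unadjusted p. The members, lists and tests were chosen with earlier results of these data known. Alternatives were other scalings, filters and tools, the block, each library left out, a nuclear denominator, sequences of several families left out and other length classes. The block combined with other settings, the minimum of intron bases, and the ends, whole introns, junctions and region shares were chosen after seeing the data.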

Additional observations from a re-analysis of the deposited data

How the results depend on the processing

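Over sums, shares, ratios and mean lengths, 439 of 465 alternatives kept the direction of hypoxia against normoxia and 26 reversed it, and none reached an exact p under 0.05 in either form, since the design cannot. The reversals were in quantities whose groups overlapped, and the cause was not tested. Where the groups did not overlap, leaving out libraries could not reverse the direction. Those alternatives were fixed in advance, so the count of kept directions is no measure of support. Leaving out libraries, the mean length difference in nt ranged from -0.27 to 0.68 for all fragments, -0.51 to 0.98 for Arg-TCT, -3.94 to 3.39 for Leu-CAA and -0.52 to 0.43 for Tyr-GTA. In CPM it ranged from -4.12 to 1.54 for the Tyr-GTA intron AGTTACTAGAATAGTG, -5.93 to 2.55 for TATAGGTGTTGAT, -3.79 to 0.046 for the Leu-CAA intron and -2.86 to 0.52 for its whole form. In percentage points it ranged from -1.70 to 4.50 for Arg-TCT ends at the last intron base, -5.31 to 3.64 for exon 1 to intron and -2.59 to 0.35 for both junctions as shares of precursor counts. For the unspliced share it ranged from -29.1 to 15.2 in Arg-TCT and -31.3 to 5.75 in Tyr-GTA.

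Precursor sequences called went from 0 to 1 with the replicate block, alone (10 sequences called in all) or with size factors (12), to 2 with the block in DESeq2 (28) or without pair 3 (21), and to 3 with the block without pair 1 (26). Precursor families called went from 0 to 1 with DESeq2 (Ile-TAT, 2 of 77 units called in all) and with the block in DESeq2 (Arg-TCT, 12 of 77, 11 of them higher). They went to 3 with the replicate block (5 of 77), with the block in limma voom (6) and with the block without pair 1 (14). With libraries left out of the group-only fit, the families called ranged from 0 to 3. Blocked log2 changes were -1.78, -2.02 and -1.66 for Arg-TCT, Ile-TAT and Tyr-GTA with edgeR, -1.51, -2.03 and -1.34 with limma voom, and -1.27, -1.76 and -0.98 without pair 1. Arg-TCT was -1.72 with the block in DESeq2, and Ile-TAT was -1.78 with DESeq2 and the group only. With libraries left out, the group-only changes ranged from -2.01 to -1.02 for Arg-TCT, from -2.62 to -1.73 for Ile-TAT and from -1.79 to -0.97 for Tyr-GTA. In DESeq2 the block removed the call of Ile-TAT. In edgeR the block changed no other call of a precursor unit or tested precursor fragment. Ile-TAT and Leu-CAA rest on 152 and 88 counts, and hypoxia replicate 1 has 80 precursor counts in all, which limits every value it enters.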
